A study of Mus musculus with 9 samples.

Results

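The genes of the proteasome and the immunoproteasome were followed in activated mouse CD8+ T cells cultured with or without an inhibitor of LSD1, the histone demethylase encoded by Kdm1a. They were taken by symbol, as every gene whose name starts with Psm followed by a letter from a to g and a number, pseudogenes left out. This gave 50 of the 24391 genes in the table. They comprised 7 alpha ring subunits, 10 beta ring subunits without the thymic Psmb11, 6 base ATPases, 3 other base subunits, 8 lid subunits, 7 assembly chaperones, 5 activator genes, the PI31 regulator gene Psmf1, the germ cell subunit Psma8 and Psmb11. The last match, Psmc3ip, encodes a cofactor of meiotic recombination and is no proteasome subunit. The rule used names only and no measured value.

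The untreated group (NT) held 5 libraries and the treated group (LSD1i) held 4. All cells were labelled CD8+, were activated for 72 h and were kept in medium with IL2 at 100 U/mL, so the NT cells were activated cells too. For the inhibitor's name and dose and the strain and age of the mice, nothing is stated in the labels. Replicates carry a number only, with no word on whether each was its own mouse or culture. A p-value therefore reflects how far these libraries scatter, and that scatter may be technical.

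The proteasome is the protease that degrades proteins tagged with ubiquitin. Its core particle is a stack of alpha and beta rings with the cutting sites inside, and a regulatory particle of base and lid binds, unfolds and feeds in the substrate. In lymphocytes and in cells exposed to interferon gamma the catalytic subunits Psmb5, Psmb6 and Psmb7 are replaced by Psmb8, Psmb9 and Psmb10, which changes the peptides cut for display on MHC class I.

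Values are CPM, counts of the authors' batch-corrected table scaled to each library's TMM-adjusted total, with SD over 5 NT or 4 LSD1i libraries. Raw libraries held 15163983 to 29245278 reads and the 50 genes took 0.644% to 0.912% of them. The names of 4 libraries were crossed between the deposited tables: the raw libraries NT 1, NT 2, LSD1i 1 and LSD1i 2 are LSD1i 1, LSD1i 2, NT 1 and NT 2 in the batch-corrected table. Groups here follow the batch-corrected table. Which of the tables has the right names is not known, and every comparison of the groups that uses these 4 libraries rests on this choice. The difference in the 5 libraries named alike in both tables and that in the other 4 are set side by side for the genes described in detail. The 5 CD8 T cell markers Cd8a, Cd8b1, Cd3d, Cd3e and Cd3g summed to 1166 to 1370 CPM in NT and 1464 to 1521 CPM in LSD1i, and the markers of CD4 T, B, NK and macrophage cells summed to at most 0.567 CPM in any library. The dendritic cell list summed to 40.9 to 103 CPM in NT and 22.3 to 52.9 CPM in LSD1i through Batf3, which T cells also express, while Flt3 reached at most 15 counts, Xcr1 at most 3 and Siglech at most 2. The part of these levels in the results below was not tested. Kdm1a, whose protein the inhibitor targets, was at 126 ± 13.1 CPM in NT and 119.6 ± 5.77 CPM in LSD1i (log2 fold change −0.07 ± 0.09 SE, adjusted p = 0.818, edgeR). An inhibitor of the protein need not alter this transcript, so the value does not check the labels.

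No tested proteasome gene passed the threshold between LSD1i and NT. Of the 50 genes, 48 had enough reads to be tested, and 0 of them were called at an adjusted p under 0.05 by edgeR's quasi-likelihood test with Benjamini-Hochberg adjustment over all 11981 tested genes, where 397 genes or 3.31% were called. At an unadjusted p under 0.05 there was 1 member, Psme2, or 2.08% of the 48, against 14.6% of all tested genes. DESeq2 called 1 member, also Psme2, while it called 5.57% of all tested genes. The median log2 fold change of LSD1i over NT was 0.01 for the 48 genes, with 28 or 58.3% above 0. For all tested genes the median was −0.02, with 45.6% above 0. Among the 48 genes the log2 fold change ranged from −0.22 for Psmg2 to 0.36 for Psme2.

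The intervals give a range for each log2 fold change, gene by gene and not adjusted over genes. They make no allowance for the authors' batch correction and may be too narrow. For 44 of the 48 genes the 95% interval of the log2 fold change lay within −0.5 to 0.5, and the exceptions were Psme2, Psme2b, Psmg2 and Psmc3ip. The intervals reached 0.15 to 0.42 to either side of the estimate. The size of the log2 fold change was under 0.2 for 45 of the 48 genes, or 93.8%, against 69.2% of all tested genes and 77.6% of the 9183 genes at least as abundant as the least abundant member. The groups overlapped for 47 members. They did not overlap for Psme2, which was higher in every LSD1i library, and 4.41% of all tested genes were likewise higher without overlap. No member was lower without overlap, against 3.46% of all tested genes. In bulk RNA, a gene at a lower level in each cell and fewer cells that express it cannot be told apart.

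**Figure D1:**
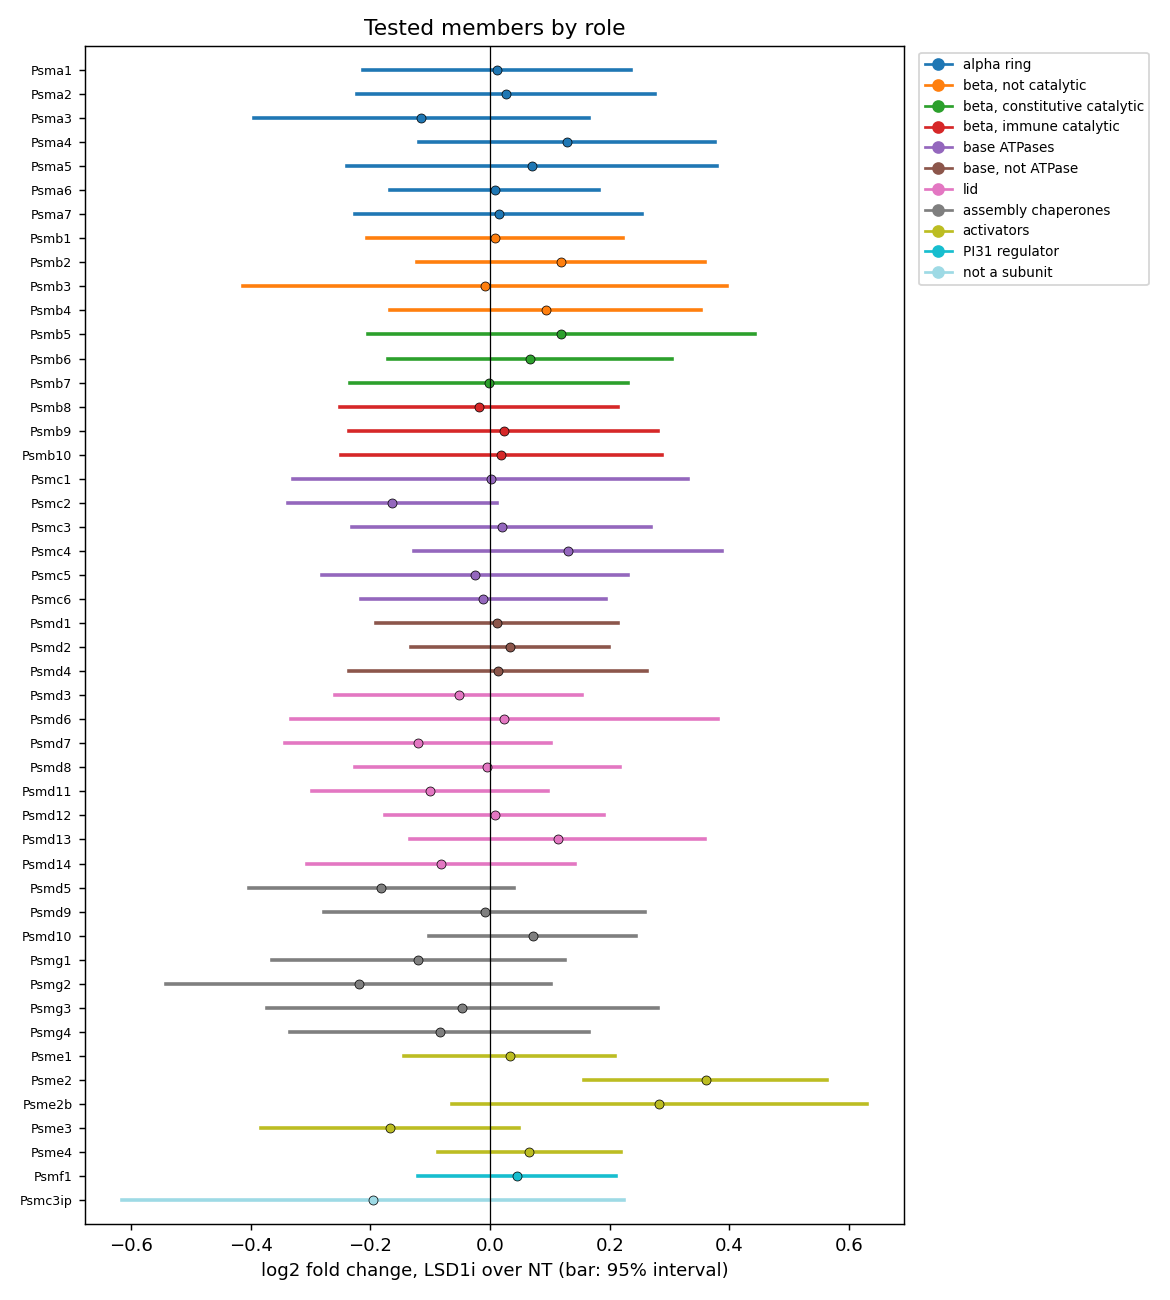
Log2 fold change of LSD1i over NT for the 48 tested genes, coloured by role, with points for the edgeR estimate and bars for the 95% interval. All but Psme2 have an interval that reaches 0, and Psme2 sits at 0.36.

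The activator genes held the only member of the 48 tested that was set apart between the groups. Of all tested genes, 4.41% were likewise higher in LSD1i without overlap. Psme1 and Psme2 encode the alpha and beta subunits of PA28, the ring that caps the core particle and, with interferon gamma, accompanies the immune subunits. Psme2 stood at 208, 234, 229, 213 and 232 CPM in NT 1 to 5 and at 271, 311, 244 and 319 CPM in LSD1i 1 to 4. All 4 LSD1i libraries lay above all 5 NT libraries, although LSD1i 3 exceeded the highest NT library by little. The means were 223 ± 12.2 and 286 ± 34.9 CPM, a log2 fold change of 0.36 ± 0.09 (SE, 95% interval 0.16 to 0.56) or 1.28-fold (1.115 to 1.478). Its unadjusted p was 0.00238 and its adjusted p was 0.0605 by edgeR, so it missed the threshold.

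The call on Psme2 turned on the tool and on single libraries. DESeq2 gave the same fold with an adjusted p of 0.0077. Leaving out LSD1i 3 gave 0.44 with an adjusted p of 0.0317 by edgeR, in a fit that called 2.08% of all tested genes, and leaving out each other library left it uncalled, at 0.31 or more. In the replicates 1 and 2, whose names are crossed, the difference in mean log2 CPM was 0.40, and in the replicates 3 to 5 it was 0.31. Fitted alone by edgeR, the 5 libraries named alike in both tables gave 0.33 (adjusted p = 0.571) and the other 4 gave 0.40 (adjusted p = 0.658). With its own names the raw table gave −0.01 (adjusted p = 0.999 by edgeR). There the libraries named NT 1 and NT 2 held 276 and 316 CPM and those named LSD1i 1 and LSD1i 2 held 203 and 239 CPM. In the authors' deposited table Psme2 had a log2 fold change of 0.37 and a false discovery rate of 0.132, and all 50 members were marked NS. Few genes were marked there at all, 94 UP and 44 DOWN of 20052.

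The partner of Psme2 showed no such separation. Psme1 stood at 424, 435, 470.1, 436 and 376.5 CPM in NT and at 421, 458, 423 and 449.8 CPM in LSD1i, so the groups overlapped throughout. The fold change was 0.03 ± 0.08 on the log2 scale (adjusted p = 0.916, edgeR). Psme1 overlaps Emc9 on the opposite strand, and no strand setting is stated for the counting, so reads of the overlap cannot be told apart. Per kb of coding sequence, Psme1 was at 573 and Psme2 at 311 CPM in NT, and at 587 and 399.6 CPM in LSD1i. The log2 ratio of Psme2 to Psme1 was −0.94 ± 0.15 in NT and −0.62 ± 0.13 in LSD1i, with overlap because NT 5 reached −0.70. This ratio was chosen after its values were seen and was not tested.

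A copy of Psme2 sits beside this result. Psme2b, a near-identical copy, was at 8.01, 5.93, 6.25, 4.86 and 6.90 CPM in NT and at 8.11, 6.29, 7.78 and 9.02 CPM in LSD1i. It had a log2 fold change of 0.28 ± 0.16 (adjusted p = 0.469, edgeR), with 0.49 in the 5 libraries named alike and 0.04 in the other 4, and the groups overlapped. Of the distinct 50-base stretches of the Psme2 transcript, 59.3% also occur in Psme2b, so reads of the pair may have been split and both values are uncertain.

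The other activators showed smaller differences. Psme3, which encodes the nuclear PA28 gamma, was at 128.8 ± 10.0 CPM in NT and 114.8 ± 14.7 CPM in LSD1i (−0.17 ± 0.10, adjusted p = 0.505, edgeR). Psme4, which encodes PA200, was at 157 ± 6.65 and 164 ± 7.82 CPM (0.07 ± 0.07, adjusted p = 0.764, edgeR). Psmf1, whose product PI31 binds the core particle, was at 39.4 ± 2.37 and 40.6 ± 1.14 CPM (0.05 ± 0.08, adjusted p = 0.866, edgeR). None of these groups stood apart.

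**Figure D2:**
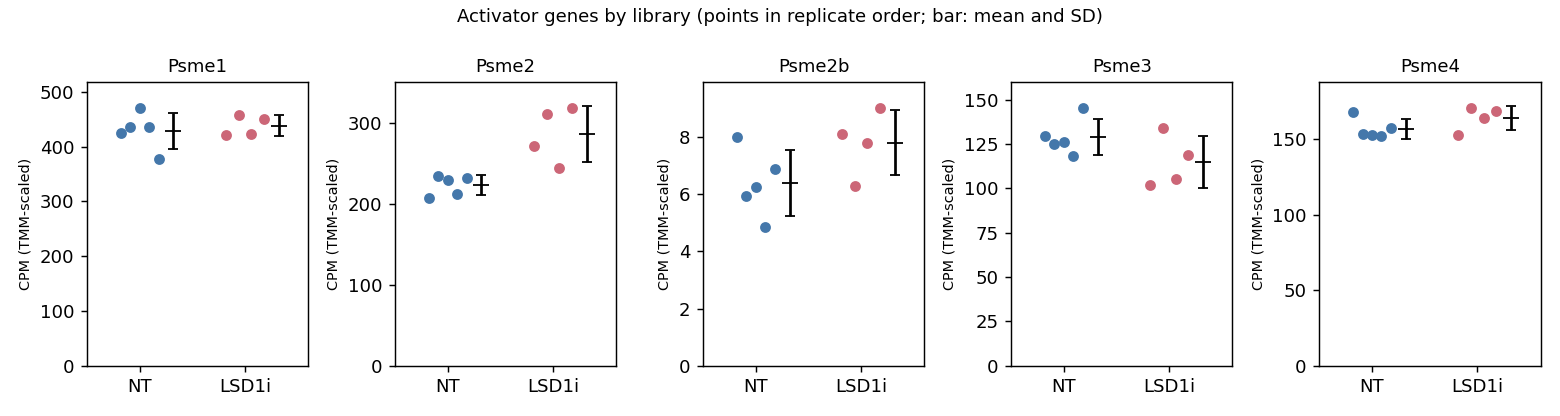
CPM of the 5 activator genes in each library, NT in blue and LSD1i in red, with mean and SD as bars. For Psme2 the 4 LSD1i points, 244 to 319, lie above the 5 NT points, 208 to 234, and in the other panels the groups overlap.

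The start sites of the PA28 pair are shown because one member of the pair was set apart and the other was not. The windows are from RefSeq on GRCm38.p6 and run from 250 bases before to 50 bases after the start, 5′ to 3′ on the gene's strand, with capitals for a match to the interferon-stimulated response element. Psme1 is at chr14:55578244-55578543 on the plus strand and Psme2 at chr14:55591052-55591351 on the minus strand, the first of 2 windows listed for Psme2.
Psme1: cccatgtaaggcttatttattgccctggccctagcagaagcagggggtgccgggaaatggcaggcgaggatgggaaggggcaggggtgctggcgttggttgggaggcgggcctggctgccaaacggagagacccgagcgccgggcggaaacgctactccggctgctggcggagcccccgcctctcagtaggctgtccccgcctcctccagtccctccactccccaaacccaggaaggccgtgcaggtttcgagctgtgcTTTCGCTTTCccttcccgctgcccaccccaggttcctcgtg
Psme2: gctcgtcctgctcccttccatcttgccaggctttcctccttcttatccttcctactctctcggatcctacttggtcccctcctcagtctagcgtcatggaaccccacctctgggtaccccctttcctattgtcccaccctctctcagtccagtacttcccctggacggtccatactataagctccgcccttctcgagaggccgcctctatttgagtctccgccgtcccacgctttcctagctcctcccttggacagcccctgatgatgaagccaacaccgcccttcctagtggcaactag
The Psme1 window holds 1 match to this element (GAAA, then NN, then GAAA), read on the other strand, 9 bases after the start. The Psme2 window holds none of the 4 motifs searched on both strands, which were that element, the gamma-activated site TTCNNNGAA, the antioxidant response element TGACNNNGC and the NF-Y box CCAAT. Of the 42 members with a window, 5 or 11.9% hold the interferon-stimulated element (Psmb3, Psmd4, Psmd9, Psme1 and Psmg4), against 3.44% of 32851 windows. A member with several windows counts if any of them matches, while the other share is over single windows. Member shares may be raised by this, here and for the motifs below. TTCNNNGAA was found in 3 members or 7.14%, among them Psmb8, against 8.3% of all windows. TGACNNNGC was found in 14.3% of members against 12.4%, and CCAAT in 35.7% against 37.4%. A match is a stretch of letters and shows no binding.

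The immune catalytic subunits did not pass the test, and their log2 fold changes were −0.02 to 0.02. Psmb8, which takes the place of Psmb5, stood at 483, 580.2, 569, 508 and 591 CPM in NT and at 524, 589, 444 and 599.98 CPM in LSD1i. Its means were 546 ± 47.9 and 539 ± 71.8 CPM (log2 fold change −0.02 ± 0.11, 95% interval −0.25 to 0.21, adjusted p = 0.966, edgeR). The lowest and the highest library were both LSD1i libraries.

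Psmb9, which takes the place of Psmb6, stood at 198, 249, 276, 183 and 208 CPM in NT and at 228, 227, 213 and 237 CPM in LSD1i. The 4 LSD1i libraries lay inside the NT range. The log2 fold change was 0.02 ± 0.12 (−0.24 to 0.28, adjusted p = 0.963, edgeR). Psmb9 overlaps Tap1 on the opposite strand, and no strand setting is stated for the counting, so reads of the overlap cannot be told apart.

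Psmb10, which takes the place of Psmb7, stood at 66.9, 86.2, 76.9, 65.7 and 90.9 CPM in NT and at 73.5, 86.0, 66.9 and 86.8 CPM in LSD1i. Its LSD1i libraries also lay inside the NT range. The log2 fold change was 0.02 ± 0.12 (−0.25 to 0.29, adjusted p = 0.971, edgeR).

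The constitutive counterparts gave similar pictures. Psmb5, the chymotrypsin-like subunit, stood at 49.7, 63.7, 58.1, 52.9 and 79.5 CPM in NT and at 61.3, 80.9, 56.0 and 65.8 CPM in LSD1i (0.12 ± 0.15, −0.20 to 0.44, adjusted p = 0.808, edgeR). Of its 50-base stretches 49.4% also occur in Gm3375, so its level is uncertain. Psmb6, the caspase-like subunit, was at 268 ± 29.8 and 281 ± 33.3 CPM (0.07 ± 0.11, adjusted p = 0.863, edgeR). Psmb7, the trypsin-like subunit, was at 226 ± 25.3 and 226 ± 25.5 CPM (adjusted p = 0.997, edgeR). It overlaps Nek6 on the opposite strand and shares 28.1% of its 50-base stretches with it, so the limit given for Psmb9, with 12.5%, holds for Psmb7 and its ratio to Psmb10 too. All groups overlapped.

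The direction of most catalytic subunits depended on the libraries. In the 5 libraries named alike the log2 fold changes of the immune genes Psmb8, Psmb9 and Psmb10 were −0.09, 0.02 and −0.01, and in the other 4 they were 0.06, 0.03 and 0.06. For the constitutive genes Psmb5, Psmb6 and Psmb7 they were −0.05, −0.01 and −0.07 against 0.33, 0.16 and 0.08. Only Psmb9 had one sign in both, and the test of the difference between the sets, given below, called none of them.

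Per kb of coding sequence, the immune gene of a pair was the more abundant only for Psmb8. The ratio of Psmb8 to Psmb5 was 8.73 ± 0.942 in NT and 7.86 ± 0.761 in LSD1i, which rests on the uncertain level of Psmb5. Psmb9 to Psmb6 was 0.908 ± 0.147 and 0.883 ± 0.0759, and Psmb10 to Psmb7 was 0.346 ± 0.0152 and 0.351 ± 0.00762. With the length of the whole transcript, the NT ratios were 5.04, 0.493 and 0.302. On the log2 CPM scale the LSD1i minus NT differences were −0.15, −0.03 and 0.02, and the groups overlapped in all 3 pairs. These ratios were described and not tested. The ratio of Psmb10 to Psmb7 had an SD of 0.06 on the log2 scale over NT libraries while Psmb9 to Psmb6 had 0.26.

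**Figure D3:**
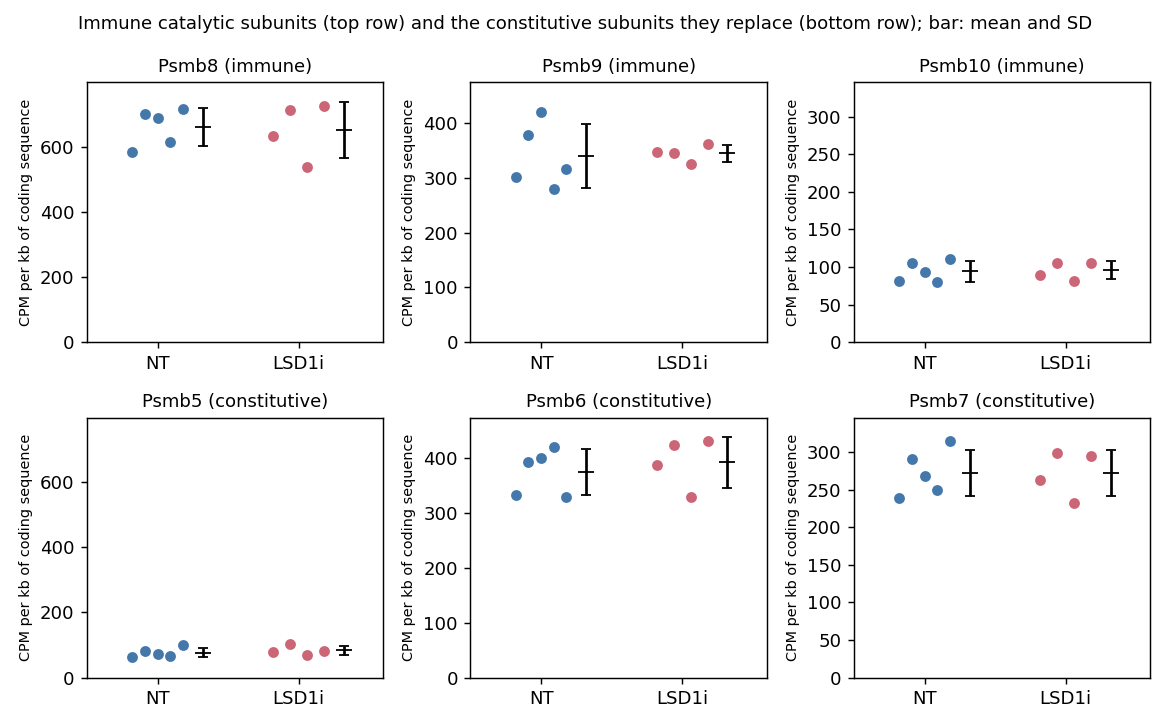
CPM per kb of coding sequence of the immune catalytic subunits (top) and the constitutive subunits they replace (bottom) in each library, with mean and SD as bars; the panels of a column share one vertical scale. Psmb8 has a mean of 659.8 and Psmb5 of 76.7 in NT, and NT and LSD1i points overlap in every panel.

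In the rest of the core particle, the alpha ring genes had log2 fold changes of −0.11 for Psma3 to 0.13 for Psma4, with a median of 0.01. Their summed level was 1480 ± 168 CPM in NT and 1506 ± 170.4 CPM in LSD1i. Of the beta subunits without a catalytic site, Psmb3 was lowest at −0.01 and Psmb2 highest at 0.12, with a median of 0.05. Psmb3 had the widest spread over NT on the log2 scale (SD 0.34), from 109 to 203 CPM. Its log2 fold change was −0.24 in the 5 libraries named alike and 0.27 in the other 4. Of its 50-base stretches 55.8% also occur in other genes, so its level is uncertain. In all, 11 members share at least 20% of these stretches with another gene. Psma3, Psma4, Psma5, Psmd2, Psmg3 and Psmc3ip are among them, and their levels are uncertain too. Per kb of coding sequence, the 17 core genes had a median of 276 CPM in NT, and ran from 76.7 for Psmb5 to 659.8 for Psmb8. This order depends on the length used. Psma3 has 765 coding bases in a transcript of 2846, and Psmb5 has 792 in one of 899. With the length of the whole transcript, Psma3 would lie below Psmb5.

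The regulatory particle genes were lower per kb, with a median of 111 CPM over 17 genes. The base ATPases, which unfold substrates and open the gate of the core, had log2 fold changes from −0.16 for Psmc2 to 0.13 for Psmc4. Psmc2 had the smallest spread over NT on the log2 scale (SD 0.04), at 134, 133, 137, 134 and 128 CPM, and stood at 111, 129, 107 and 129 CPM in LSD1i. The low LSD1i libraries were 1 and 3, and the groups overlapped at the top of LSD1i and the lowest NT library (adjusted p = 0.385, edgeR). Its log2 fold change was −0.17 in the 5 libraries named alike and −0.15 in the other 4. The other base subunits, Psmd1 and Psmd2 as scaffolds and Psmd4 as a ubiquitin receptor, had log2 fold changes of 0.01 to 0.03. The 8 lid genes had log2 fold changes from −0.12 for Psmd7 to 0.11 for Psmd13, and Psmd14, which encodes the deubiquitinase of the lid, was at 227 ± 20.7 and 215 ± 26.8 CPM.

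The assembly chaperones bind intermediates and are not part of the finished particle. Of the 7, 6 had a log2 fold change under 0 and the median was −0.08, and 0 were called. Of all tested genes, 45.6% had a log2 fold change above 0 and 3.31% were called. Psmg1 and Psmg2, whose products pair to build the alpha ring, had −0.12 ± 0.11 (adjusted p = 0.725, edgeR) and −0.22 ± 0.15 (adjusted p = 0.578, edgeR). Psmg3 and Psmg4, the partners of the second pair, had −0.05 ± 0.15 and −0.08 ± 0.11. Psmd10, which encodes gankyrin, a chaperone of the base, was the exception at 0.07 ± 0.08. Psmg2 was at 39.6, 50.7, 42.2, 50.5 and 59.6 CPM in NT and at 38.9, 50.4, 32.9 and 44.3 CPM in LSD1i, with NT 5 high and LSD1i 3 low.

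The shared sign of the 4 Psmg chaperones rested largely on the 5 libraries named alike. In the 5 libraries named alike Psmg1, Psmg2, Psmg3 and Psmg4 had log2 fold changes of −0.21, −0.39, −0.18 and −0.28, and in the other 4 they had −0.01, −0.01, 0.11 and 0.16. As differences in mean log2 CPM, Psmd5 had −0.26 in the 5 libraries named alike and −0.10 in the other 4, so it kept its sign. Psmd9 had −0.03 and 0.03, and Psmd10 had 0.08 and 0.07. Without NT 5, Psmg1 was at −0.05 and Psmg3 at 0.07, and without LSD1i 3, Psmg2 was at −0.12.

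Psma8, the alpha subunit of germ cells, had 1 to 6 counts in each library and was not tested. Psmb11, the catalytic subunit of the thymic cortex, had 1 count in 1 library and 0 in 8, where a count of 0 allows up to 0.11 to 0.20 CPM over the libraries; limits of this kind cover counting error only. Psmc3ip, the match that is no subunit, was at 17.2 ± 3.84 and 14.98 ± 3.57 CPM (−0.20 ± 0.19, adjusted p = 0.739, edgeR).

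Between libraries of 1 group most of the genes moved together. After each group's mean was taken out, the correlation across the 9 libraries had a median of 0.73 over the 1128 pairs of members, and 41.8% of the pairs were above 0.8. Between a member and a gene that is no member, the median was −0.05 and 10.5% were above 0.8. The genes that are no members were all others tested and were not matched in level. Psmc3ip, which is no subunit, had a median of 0.79 with the other members, so the pattern was not confined to subunits. The points share their libraries and depth, and the values are a description. Psmb7, Psma5 and Psmc4 had the highest median correlation with the other members, 0.92, 0.92 and 0.90. Members with a median under 0 were 6, namely Psmf1, Psmd11, Psmd10, Psmc6, Psme1 and Psme2b, so Psme1 did not follow the rest while Psme2 did, at 0.76.

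The libraries that carried this pattern were in both groups. The median deviation of the members from their group mean was 0.20 on the log2 scale in NT 5 and 0.15 in LSD1i 2, and −0.16 in NT 1 and −0.19 in LSD1i 3. The summed level of the 50 genes was 7472, 8682, 8411, 7740 and 8940 CPM in NT and 8011, 9161, 7361 and 8918 CPM in LSD1i. Both the lowest and the highest sum were in LSD1i. NT 1 also had 13.3% of its raw reads on the ribosomal RNA gene Rn45s, against 1.66% to 2.87% in the other libraries, and the part of this in its low sum was not tested.

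**Figure D4:**
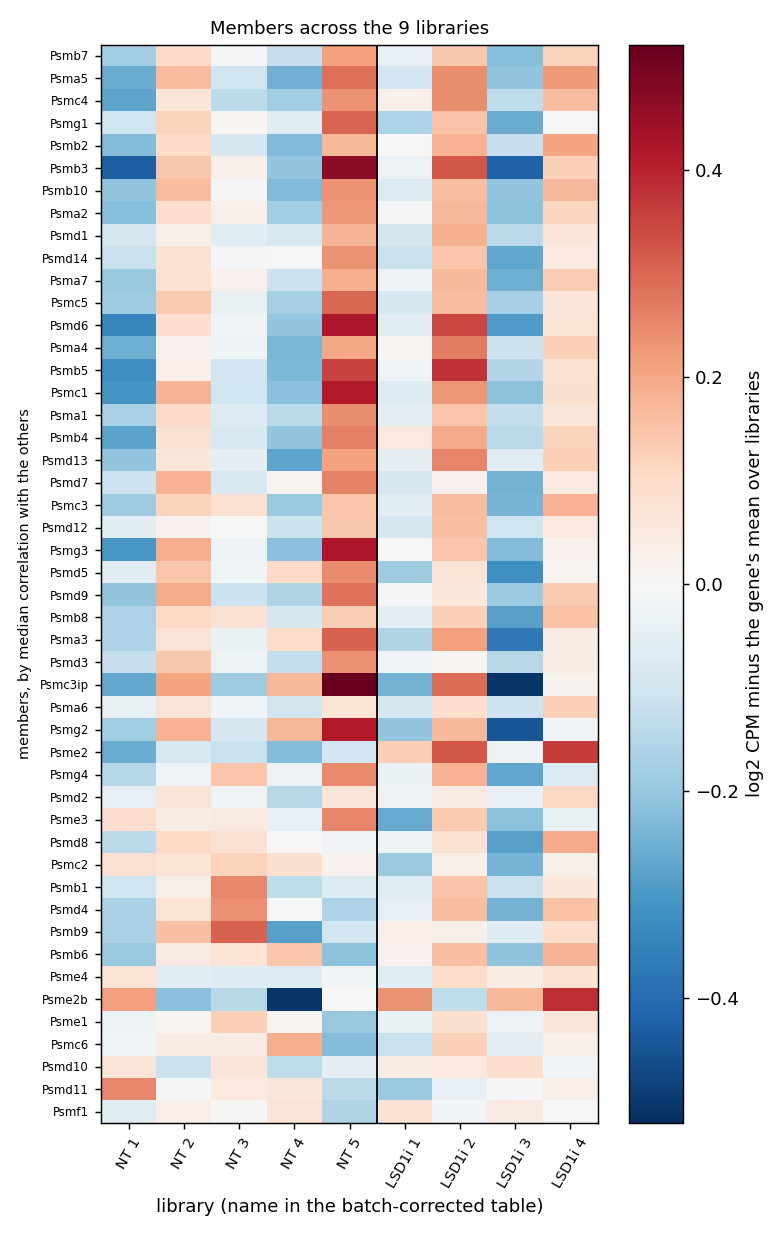
Log2 CPM of each tested member in each library minus the gene's mean over libraries, with members ordered by their median correlation with the others. Most rows are blue in NT 1 and LSD1i 3 and red in NT 5 and LSD1i 2, and the rows at the bottom, down to Psmf1, do not follow.

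Across the replicates, 20 of the 48 members had one sign of difference in replicates 1 and 2 and in replicates 3 to 5. A term for the difference between these sets called 0 members by edgeR, 0 also at an unadjusted p under 0.05, and 0 of all tested genes.

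The genes around the proteasome likewise held no call. Of 52 tested genes in 5 lists, edgeR called 0 and DESeq2 called 0. By edgeR 2 of the 52, Ifng among them, had an unadjusted p under 0.05. Over all tested genes the shares were 3.31% called by edgeR, 5.57% called by DESeq2 and 14.6% at the unadjusted p of edgeR. The 16 partners whose symbols the rule misses had a median log2 fold change of −0.05, and the smallest p among them was that of Zfand5, which activates the proteasome (−0.19 ± 0.11, adjusted p = 0.520, edgeR). The 8 transcription factors of proteasome genes had a median of −0.07. Among them Nfyb, a subunit of NF-Y, had 0.19 ± 0.09 (adjusted p = 0.376, edgeR). The 9 ubiquitin genes had a median of 0.00.

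The interferon gamma path leads to the immune subunits. Ifng itself was at 379, 777, 689, 598 and 1403 CPM in NT and at 337, 562, 189 and 327 CPM in LSD1i. NT 5 was far above the rest, and LSD1i 2 overlapped NT. The log2 fold change was −1.12 ± 0.37 (adjusted p = 0.155, edgeR), −1.79 (adjusted p = 0.00454) in the 5 libraries named alike, −0.36 (adjusted p = 0.987) in the other 4, −0.33 (adjusted p = 0.999) in the raw table with its own names, −1.29 (adjusted p = 0.0488) without NT 1 and −0.79 (adjusted p = 0.212) without NT 5. The other 7 genes of the list had log2 fold changes above 0, as did 45.6% of all tested genes, and none was called. The 11 genes of MHC class I peptide supply and loading had a median of 0.08, and the smallest p was that of the chaperone gene Calr (−0.17 ± 0.10, adjusted p = 0.480, edgeR).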

How the data were processed

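RNA of mouse CD8+ T cells was measured in 9 libraries, 5 NT and 4 LSD1i, grouped by the sample titles. Per the submitters' processing notes, STAR, featureCounts, edgeR and the build mm9 were used, with no versions; the strand setting and correction method are not given in the sources used. Raw counts are the authors' deposited read counts per gene, 15163983 to 29245278 per library, with 0 rows without a gene name. Estimated counts are those the authors deposited after batch correction, 15003752 to 27215488 per library, used as whole numbers. The authors' deposited table of their comparison holds log2 fold changes, a test score and p-values. Libraries were matched between the count tables by genes at 0 in only 1 table, which gave 0 such genes for each match, and no pair agreed within sampling noise (lowest chi-square per degree of freedom 7.43).

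The batch-corrected table was tested with edgeR 4.0.16 (R 4.3.3), group only, TMM, Benjamini-Hochberg adjustment at 0.05 and its filter on low counts. The filter was applied by group, with a minimum count of 10 and a minimum total of 15. The minimum count need not be met in every library. The standard error is the coefficient over the square root of F. The fit made no allowance for the earlier batch correction, so standard errors, intervals and p-values may be too small. Correlations used log2 of CPM plus 0.5. Coding lengths and shared 50-base stretches came from GENCODE M21, promoters from RefSeq. The alternatives began with raw counts as named. Raw counts were also fitted with the names of the corrected table and a batch term (replicates 1 and 2 against 3 to 5). The labels name no batch, so this split was an assumption, and it parts the libraries with crossed names from the rest. Further alternatives were a replicate block, the 5 libraries named alike, the other 4, RLE factors, no filter, DESeq2 1.42.0 and each library left out.

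The members, lists and tests were chosen with earlier results of these data known. Text names the catalytic, activator, Psmf1 and Psmg genes, the highest and lowest member of each role, members with an unadjusted p under 0.05, untested members, Psmc3ip, Kdm1a and the gene of smallest p in each other list, 1 of which is not reported here. Psma5, Psmc6, Psmd4, Psmd5, Psmd11, Psmd14 and the genes with motif matches were named after their values were seen.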

Additional observations from a re-analysis of the deposited data

How the results depend on the processing

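The number of all genes called, 397, was 0 with the raw counts as named (172 at an unadjusted p under 0.05, edgeR), 220 with raw counts and a batch term, 245 in the 5 libraries named alike, 57 in the other 4 and 667 with DESeq2, and 219 to 432 when 1 library was left out. It was lowest without LSD1i 1 (228), LSD1i 3 (251) and LSD1i 4 (219). The number of members called, 0, was 1 with DESeq2 and 0 to 1 when 1 library was left out, the 1 being Psme2 without LSD1i 3.

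Of 612 log2 fold changes of 34 genes under alternatives, 537 kept direction and call, 4 passed the threshold and 71 had the other sign. With the raw counts as named, 4 libraries stand in the other group, and which names are right is not known. The sign there turned for Psmb5 (−0.179), Psmb6 (−0.117), Psmb9 (−0.0305), Psmb10 (−0.0194), Psme1 (−0.0187), Psme2 (−0.0140), Psme3 (0.0146) and Psma4 (−0.123). It also turned for Psmd10 (−0.0346), Psmc4 (−0.0866), Psmd1 (−0.0617), Psmb2 (−0.0178), Psmd13 (−0.0475), Kdm1a (0.0485) and Nfyb (−0.0346). The difference in log2 ratio there moved to 0.07 for Psmb8 to Psmb5 and 0.12 for Psmb10 to Psmb7. In the 5 libraries named alike it turned for Psmb5 (−0.0536), Psmb6 (−0.00783), Psmb10 (−0.0121) and Psmd1 (−0.0432). In the other 4 it turned for Psmb7 (0.0828), Psmb8 (0.0649), Psmg3 (0.112), Psmg4 (0.16), Psma3 (0.0855), Psmd2 (−0.00809), Psmb3 (0.273), Psmc3ip (0.0653) and Zfand5 (0.0017). With raw counts and a batch term it turned for Psmb7 (0.0462), Psmb8 (0.00702) and Psmb3 (0.0685), without the filter for Psmb7 (0.00794) and Psmb3 (0.00199), and with DESeq2 for Psmb7 (3.65e-05). When 1 library was left out, values on both sides of 0 were found for Psmb7 (−0.0411 to 0.0742), Psmb8 (−0.0738 to 0.0710), Psmb9 (−0.0399 to 0.111), Psmb10 (−0.0342 to 0.0949), Psme1 (−0.00537 to 0.0681), Psmg3 (−0.116 to 0.0745), Psmd1 (−0.0416 to 0.0649) and Psmb3 (−0.115 to 0.129). The causes were not tested.

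Libraries with the same replicate number correlated in their deviations at −0.107, 0.317, 0.1004 and −0.325 in the batch-corrected table, where 2 of 4 were the best partner of their own number. In the raw counts with the names of the corrected table the correlations were 0.570, 0.759, 0.692 and 0.507, with 3 of 4 best partners. The replicate block called 326 genes in the corrected table (2.72% of those tested) and 352 in the raw counts (2.95%), and 0 members in both; Psme2 had adjusted p = 0.105 and 0.0836 (edgeR). With the replicate block the sign turned in the corrected table for Psmb7 (0.0518), Psmb8 (0.00535), Psme1 (−0.00989), Psmg3 (0.0737) and Psmb3 (0.117), and in the raw counts for Psmb7 (0.0748), Psmb8 (0.0330), Psmg3 (0.0806), Psmg4 (0.0356), Psma3 (0.00642) and Psmb3 (0.174).

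With 5 and 4 libraries, the intervals given above are not a limit of detection. They are not adjusted over genes, while the calls are. Psme2 was not called by edgeR although its interval was 0.16 to 0.56.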
